A study of Mus musculus with 18 samples.

Results

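The genes described here make cholesterol and fatty acids. A list of 29 mouse genes was looked up by symbol in the annotation of the Affymetrix MOE430A chip. Probe sets annotated to several genes were not used. Of the listed genes, 27 had a probe set annotated to them alone, out of 12393 such genes. Acat2, the thiolase that opens the sterol pathway, and Insig1, which holds its regulators back when sterol is plentiful, had none, so their levels were not analysed here. For each gene the probe set with the highest mean log2 signal was used. The 27 genes fall into 16 enzymes of cholesterol synthesis (the sterol arm), 3 sterol regulators and carriers (Srebf1, Srebf2 and Stard4) and 8 genes of fatty acid synthesis (the fatty acid arm). All 27 passed the detection filter, which asked for a Present call on at least 2 arrays. Of these genes, 20 were called Present on all 16 arrays that have calls. The other 7 were Mvk (4 arrays), Pmvk (7), Lss (10), Dhcr7 (14), Hsd17b7 and Sc5d (15 each) and Acss2 (2), and their levels are the least certain.

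The samples were the oviduct, uterus and vagina of newborn ICR mice, which arise in large part from the Müllerian duct. Their mothers had received oil or diethylstilbestrol (DES), a synthetic estrogen, at 67 µg per kg of maternal body weight each day from fetal day 10 to 18. Per the labels, total RNA came from 3 litters at birth and 1 µg was used per sample, giving 6 groups of 3 arrays. Whole organs were used, so fewer cells of a type and less RNA per cell cannot be told apart. P-values measure the spread between these samples, which may be technical in part: the labels do not say whether an array number stands for a litter.

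Animal cells build cholesterol from acetyl-CoA through mevalonate, isoprenoid units, squalene and lanosterol, and build fatty acids from the same acetyl-CoA with reducing power from NADPH. The transcription factors encoded by Srebf2 and Srebf1 turn on both branches, the first mainly the sterol arm and the second mainly the fatty acid arm. They bind sterol regulatory elements in promoters, where the factors NF-Y and Sp1 commonly act beside them. Growing and secreting epithelia draw on both branches for membranes and lipid.

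Promoters of the sterol arm share a simple feature that the choice of genes did not use. RefSeq promoter entries on build GRCm38.p6, each 250 bases before to 50 bases after an annotated start, matched 23 of the 29 listed genes, 14 of them in the sterol arm. Fdps, Fdft1, Sqle, Stard4, Scd1 and Scd2 had no match. The NF-Y box, searched as CCAAT on both strands, was found in 13 of the 14 sterol arm genes (92.9%, all but Acat2), against 42.3% of 17492 protein-coding genes and 37.4% of 32851 promoters. The Sp1 box, GGGCGG, was found in 13 of 14 (all but Pmvk), against 49.2% of protein-coding genes. The strict core of the sterol regulatory element, TCACNCCAC, was found only in Hmgcs1, against 1.41% of protein-coding genes, and the nuclear receptor half-site AGGTCA in 2 of 14 against 16.7%. Of the 6 fatty acid arm genes with an entry, 4 held an NF-Y box and 3 an Sp1 box. A match is a description of letters and not a measured binding site. The promoters of 5 genes are printed 5′ to 3′ on the strand of the gene: Hmgcs1 (chr13:119690101-119690400, plus strand) for its sterol element, and Idi1 (chr13:8885356-8885655, plus), Lss (chr10:76531355-76531654, plus), Ebp (chrX:8193463-8193762, minus) and Fasn (chr11:120824498-120824797, minus) because these genes rose with DES when averaged over the organs. Capitals mark NF-Y boxes on either strand and, in Hmgcs1, the sterol element core. Srebf1 and Me1 also rose on average and have entries, which are not printed. Srebf1 starts 1 and 3 hold 1 NF-Y box each and start 2 none, while Me1 start 2 holds 1 and start 1 none. Genes that did not rise on average hold such boxes too: 5 in Mvk, 3 in Msmo1 and 3 in Hsd17b7. A link between boxes and the DES change was not tested.
Hmgcs1: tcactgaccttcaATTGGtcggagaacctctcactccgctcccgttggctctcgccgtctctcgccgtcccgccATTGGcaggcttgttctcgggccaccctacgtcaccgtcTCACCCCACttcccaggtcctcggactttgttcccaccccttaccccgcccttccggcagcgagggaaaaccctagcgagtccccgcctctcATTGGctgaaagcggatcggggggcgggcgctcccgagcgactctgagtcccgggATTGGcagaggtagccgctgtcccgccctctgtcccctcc
Idi1: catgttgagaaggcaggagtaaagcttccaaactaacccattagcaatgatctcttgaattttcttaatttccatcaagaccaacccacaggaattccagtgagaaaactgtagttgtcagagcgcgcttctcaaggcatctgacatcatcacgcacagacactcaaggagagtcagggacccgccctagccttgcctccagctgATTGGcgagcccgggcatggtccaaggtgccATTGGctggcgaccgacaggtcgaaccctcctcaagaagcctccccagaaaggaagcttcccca
Lss: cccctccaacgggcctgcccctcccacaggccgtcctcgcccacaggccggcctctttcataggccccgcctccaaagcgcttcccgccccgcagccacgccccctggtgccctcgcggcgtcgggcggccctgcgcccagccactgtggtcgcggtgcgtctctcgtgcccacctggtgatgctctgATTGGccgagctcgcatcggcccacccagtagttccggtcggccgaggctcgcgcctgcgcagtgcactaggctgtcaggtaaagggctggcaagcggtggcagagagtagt
Ebp: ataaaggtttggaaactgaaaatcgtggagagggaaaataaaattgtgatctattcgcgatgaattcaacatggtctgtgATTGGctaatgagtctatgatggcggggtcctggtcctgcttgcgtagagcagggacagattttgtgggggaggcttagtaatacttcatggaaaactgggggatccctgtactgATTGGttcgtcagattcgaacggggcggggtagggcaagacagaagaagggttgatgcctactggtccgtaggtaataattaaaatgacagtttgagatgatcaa
Fasn: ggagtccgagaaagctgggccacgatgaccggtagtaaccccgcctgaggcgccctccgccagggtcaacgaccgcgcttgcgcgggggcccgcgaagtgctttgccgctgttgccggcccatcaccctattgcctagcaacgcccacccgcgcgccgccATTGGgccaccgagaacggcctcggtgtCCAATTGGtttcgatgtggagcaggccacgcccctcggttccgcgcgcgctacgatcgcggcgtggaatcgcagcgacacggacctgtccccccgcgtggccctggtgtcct
The map of motif positions shows where the boxes lie. In Idi1 the NF-Y boxes begin 45 and 14 bases before the start, in Lss the single box 62 bases before it, and in Ebp 170 and 55 bases before it.

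**Figure D1:**
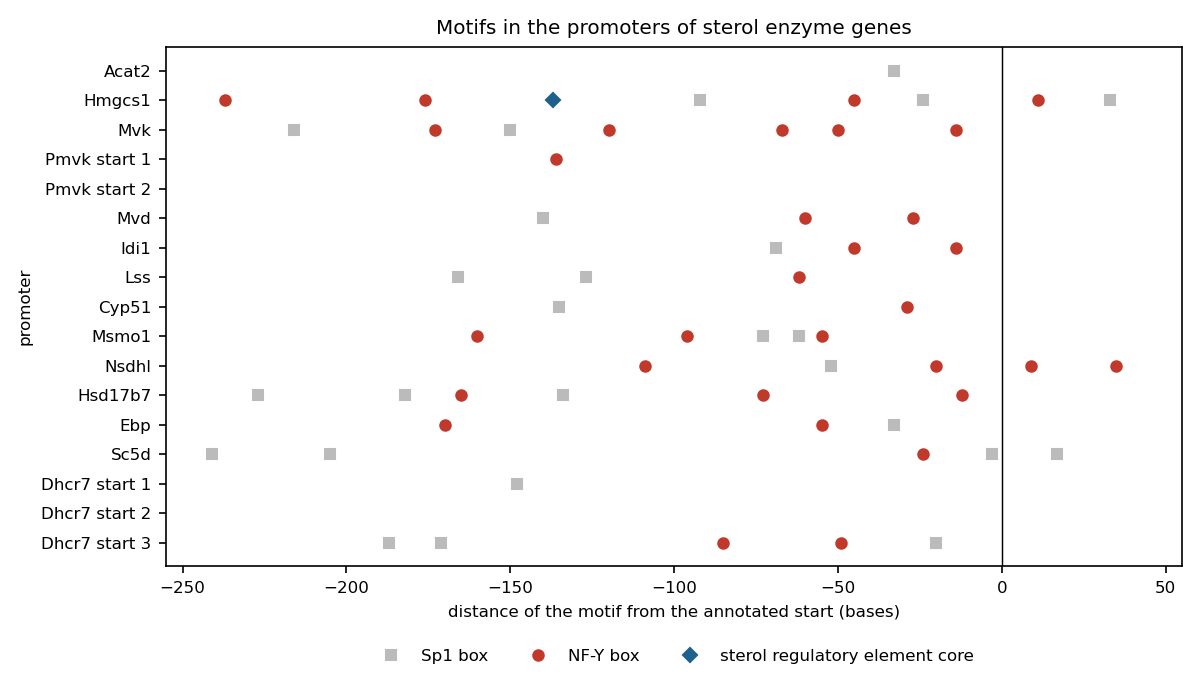
Positions of NF-Y boxes (circles), Sp1 boxes (squares) and the sterol regulatory element core (diamond) in RefSeq promoters of sterol arm genes, one row per annotated start, with the distance from that start in bases on the horizontal axis. Each gene but Acat2 has at least 1 NF-Y box in at least 1 of its promoters, and the single sterol element core lies 137 bases before the start of Hmgcs1.

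Some arrays need care. DES vagina array 1 was hybridised to another chip, MG_U74Av2, and is left out here, which leaves n = 2 in that group. Arrays numbered 3 were scanned on a second day, and their analysis names give 19 dpc where the others known give 0 d. Each array was scaled to a 2% trimmed mean of 500, from trimmed means of 26.5 to 143, and the share of probe sets called Present was 52.7% to 66.3%. The file of oil oviduct array 1 repeats DES oviduct array 1 in all 22690 signals, so its values came from the series' value table. The experiment record of DES oviduct array 3 names vagina, but its oviduct marker Ovgp1 read 4219 and its vaginal Hox gene Hoxd13 4.15, against 275 to 479 for Hoxd13 in the vagina. In oil, Ovgp1 was 859 to 922 in oviduct and 118 to 180.1 in uterus. Summed skeletal muscle markers spanned 1417 to 12366 in oil oviduct and 925 to 14003 in oil uterus, high on oil oviduct arrays 1 and 3 and oil uterus array 3. Levels below are scaled signals in array order (1, 2, 3; 2 and 3 for DES vagina), and changes are log2 differences ± SE from limma on log2(signal + 32), which understates changes of dim genes. A gene is said to rise or fall where the Benjamini-Hochberg adjusted p over all 16702 probe sets tested was under 0.05. The test was repeated with the scan day as a block.

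**Figure D2:**
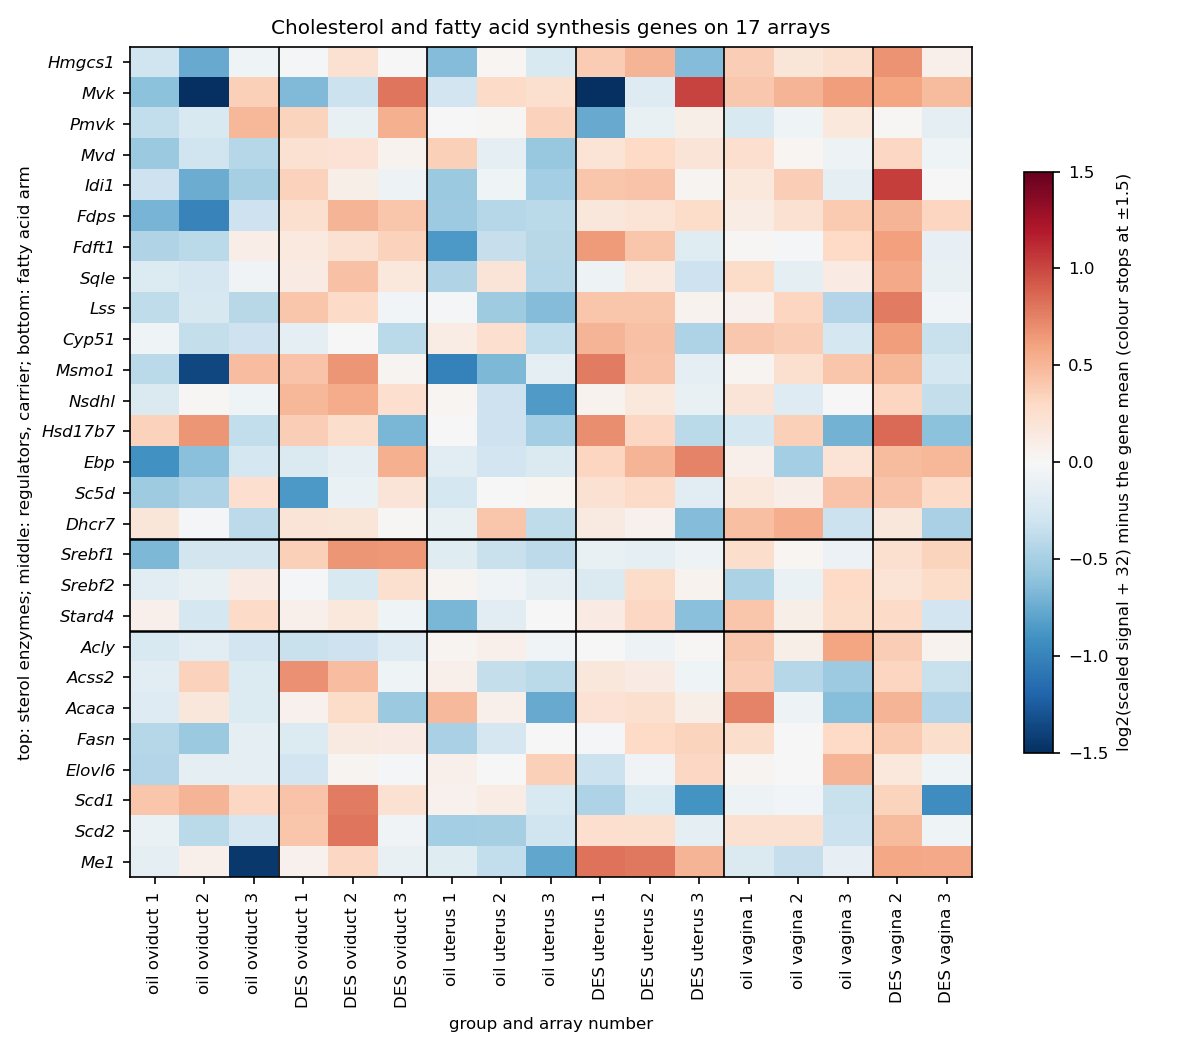
Heat map of the 27 genes (rows, in pathway order within the sterol arm, the regulators and carrier, and the fatty acid arm) on 17 arrays (columns, by group), coloured by log2(scaled signal + 32) minus the mean of the gene, with colour stopping at 1.5 either way. Oil oviduct and oil uterus columns are mostly blue in the sterol rows, and oil vagina and most DES columns mostly red. DES uterus array 3 and DES vagina array 3 are mixed there, with more blue than red. The arrays numbered 3 often differ from the other arrays of their group.

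In oil-treated newborns, mRNA of a few of these genes was lower in oviduct or uterus than in vagina. Fdps, which makes farnesyl diphosphate, read 1037, 835 and 1364 in oil oviduct. It read 1158, 1256 and 1278 in oil uterus. It read 1839.8, 1998 and 2239 in oil vagina. All vaginal arrays lay above all arrays of the other organs. Fdps was lower in oviduct than in vagina by limma (log2 difference -0.91 ± 0.15, adjusted p = 0.00113) and lower in uterus than in vagina (-0.70 ± 0.15, adjusted p = 0.0116). The second call did not hold without oil uterus array 1 or oil vagina array 3 (highest adjusted p = 0.0619). Acly, which frees acetyl-CoA from citrate for both branches, read 1971, 2045 and 1889 in oil oviduct against 3061, 2452 and 3489.8 in oil vagina. These groups did not overlap, and Acly was lower in oviduct (log2 difference -0.59 ± 0.13, adjusted p = 0.0131). Oil uterus lay between, at 2379, 2435 and 2226. The Acly call was lost in 9 of 34 alternatives, 2 of them other probe sets of the gene, and 1 further probe set, called Present on 4 arrays, had the opposite sign (0.53).

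Over all 27 genes, 2 were lower in oviduct than in vagina against 2.29% of all 9637 genes tested, and 1 was lower in uterus than in vagina against 2.98%. None was higher in either comparison, where 2.41% and 1.55% of all genes were. Blocking on scan day raised these counts to 5 (background 4.64%) and 2 (5.35%). The block added Idi1, which interconverts the 5-carbon isoprenoids (log2 difference -0.65 ± 0.24, adjusted p = 0.0283 with the block), Srebf1 (-0.48 ± 0.15, 0.0313) and Fasn, the fatty acid synthase (-0.56 ± 0.16, 0.00963) for oviduct against vagina. It added Fasn for uterus against vagina (-0.43 ± 0.16, adjusted p = 0.049). The median log2 difference of the genes was -0.35 for oviduct against vagina, where all genes had 0.03, and -0.31 for uterus against vagina, where all genes had 0.02. Without overlap between groups, 9 genes were lower in oviduct than in vagina (background 8.58%) and 10 were lower in uterus than in vagina (background 9.9%). Scd1 went the other way, higher in oviduct than in vagina without overlap (log2 difference 0.56), but it did not pass. Between oviduct and uterus none of the 27 genes passed by limma, with or without the block (background 1.83%, or 5.08% with the block), and none had an unadjusted p under 0.05. The lowest p there was that of Elovl6, an elongase of long-chain fatty acids (log2 difference -0.38 ± 0.19, adjusted p = 0.497). Markers of several cell types moved in the same oil comparisons. Of 14 epithelial genes, 7 were lower in oviduct and 8 lower in uterus than in vagina. Of 10 stratified squamous genes 7 were lower in each, of 11 neural and Schwann genes 5 and 7 were lower, and of 9 smooth muscle genes 5 and 3 were lower. Of 6 mesothelial genes 5 were higher in oviduct and 4 in uterus than in vagina. Their part in the result was not tested.

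In the DES oviduct, Fdps and Srebf1 rose, and 14 of 16 sterol enzymes had a log2 change above 0. Fdps read 2022, 2427 and 2286 in DES oviduct, where oil oviduct had given 1037, 835 and 1364. The lowest DES array was well above the highest oil array. Its log2 change was 1.06 ± 0.15 (adjusted p = 0.000205). Srebf1, whose product drives fatty acid synthesis genes, read 633, 845 and 846 in oil and 1328, 1649 and 1632 in DES oviduct. These groups did not overlap either, and the log2 change was 0.96 ± 0.15 (adjusted p = 0.000345). The Fdps difference was 1.22 within the first scan day and 0.73 within the second, and the Srebf1 difference 0.98 and 0.92. Both calls held in all 31 alternatives, including without oil oviduct array 1 and DES oviduct array 3 together (1.03, adjusted p = 0.0057; 0.78, adjusted p = 0.012).

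These 2 of 27 genes are 7.41%, close to the background of 5.35% of all genes that rose in the DES oviduct. None of the 27 fell, where 4.09% of all genes did. When scan day was a block, 8 of 27 rose (29.6%, background 9.15%) and none fell (background 8.79%). The added genes were Mvd, which makes isopentenyl diphosphate (log2 change 0.59 ± 0.21, adjusted p = 0.0287 with the block), Idi1 (0.64 ± 0.24, 0.0189) and Lss, which closes squalene epoxide into lanosterol (0.57 ± 0.26, 0.0434). They were joined by Nsdhl, a sterol decarboxylase (0.53 ± 0.21, 0.0338), Ebp, the sterol isomerase (0.66 ± 0.22, 0.0096), and Scd2, a stearoyl-CoA desaturase (0.64 ± 0.21, 0.00749). Without the block the adjusted p of these 6 lay between 0.0727 (Scd2) and 0.231 (Lss). Of all changes, 24 of 27 were above 0 (88.9%, against 43.2% of all genes), and in 11 of 27 (40.7%) every DES array exceeded every oil array, against 12.1% of all genes. None of the 27 was lower without overlap, against 14.1%. The median log2 change was 0.51 in the sterol arm and 0.25 in the fatty acid arm, where all genes had -0.06. The plot of log2 changes by organ shows most sterol enzymes to the right of 0 in the oviduct.

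**Figure D3:**
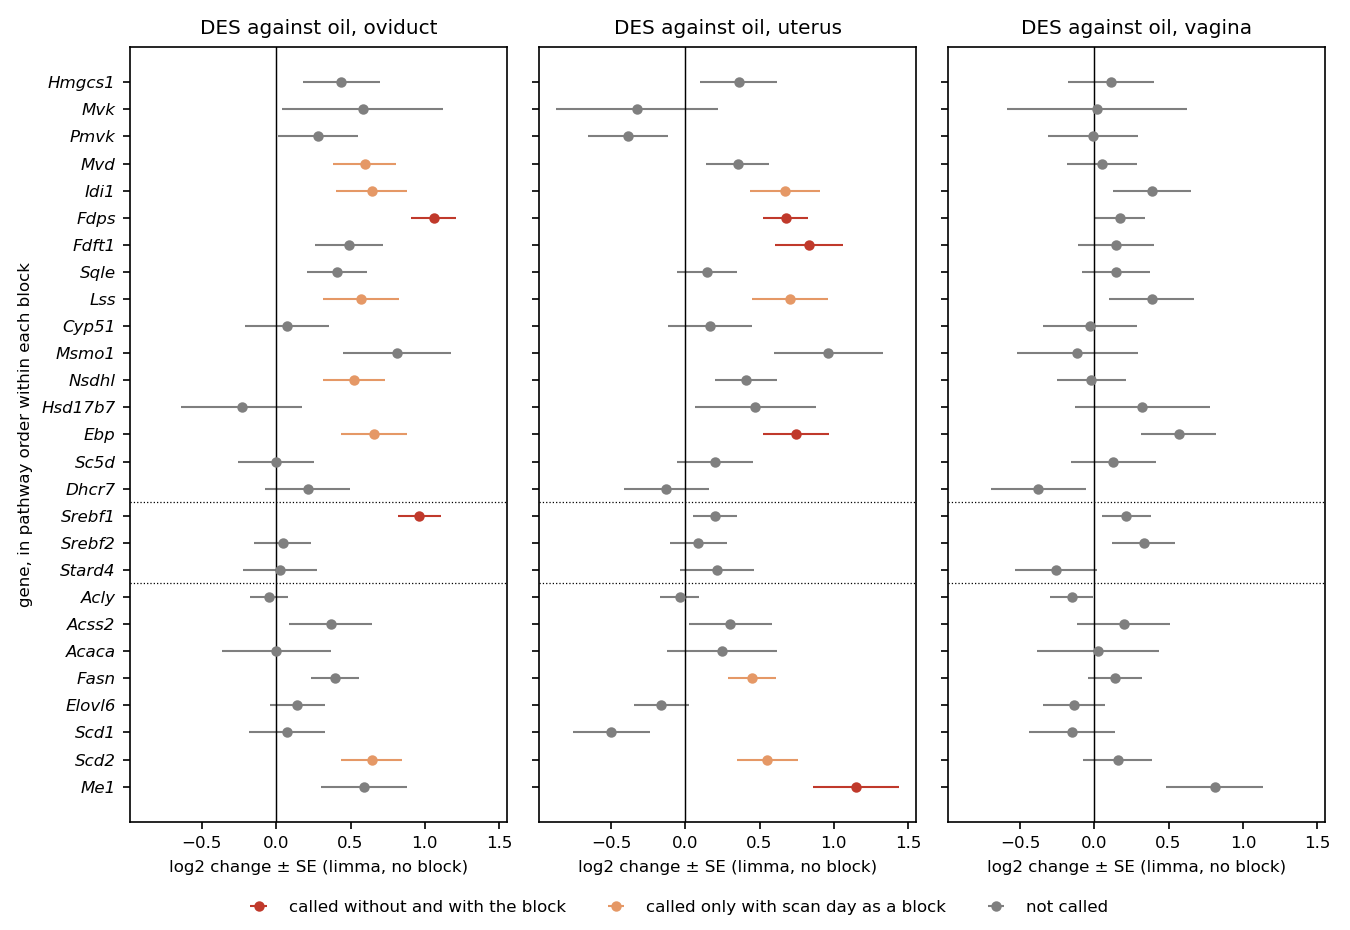
Log2 change with DES (points) ± SE (bars) for each of the 27 genes in oviduct, uterus and vagina, from limma without a block, coloured by whether the change passed the threshold. Fdps and Srebf1 stand out in the oviduct, Me1, Fdft1, Ebp and Fdps in the uterus, and no gene passed in the vagina.

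Early and middle steps of the sterol arm can be read array by array. Hmgcs1, which makes HMG-CoA at the head of the pathway, read 2866, 2081 and 3366 in oil oviduct and 3453, 4142 and 3526 in DES oviduct. These groups did not overlap, but the change of 0.44 ± 0.26 did not pass (adjusted p = 0.41). Idi1 read 586, 424 and 508 in oil and 942, 782 and 696 in DES oviduct, again without overlap. Sqle, the squalene epoxidase and a rate-limiting step, read 1129, 1098 and 1264 in oil and 1432, 1781 and 1469 in DES (change 0.41 ± 0.20, adjusted p = 0.29). Its groups were apart too. Fdft1, which joins farnesyl units into squalene, read 894, 929 and 1325 in oil and 1376, 1448 and 1578 in DES; the change of 0.49 ± 0.23 did not pass with this probe set (adjusted p = 0.251), while a second Fdft1 probe set, Present on 16 arrays, rose by 0.70 (adjusted p = 0.0150). Msmo1, a sterol methyl oxidase, differed between the scan days, with a change of 1.43 within the first and -0.42 within the second. Lss read 183, 205 and 177 in oil and 341, 310.1 and 239.9 in DES, and Ebp 368, 454 and 593 in oil and 615, 647 and 1056 in DES. Both had every DES array above every oil array, the Ebp groups by a small margin.

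Epithelial markers moved with these genes in the oviduct. Of 14 epithelial genes, 8 rose with DES, among them Cldn7 (1.67 ± 0.23) and Elf3 (1.32 ± 0.18), and their summed signal was 17156 to 20918 over oil and 31532 to 37504 over DES oviduct arrays. None of the 14 is at 0: each was called Present on all 16 arrays with calls. Some other lists held genes that went the other way: 11 of 19 cell-cycle genes, 4 of 6 mesothelial genes and 4 of 11 neural and Schwann genes were lower in DES oviduct. No smooth muscle, skeletal muscle or stratified squamous gene passed there, and of 13 mesenchymal genes 1 rose and 3 fell. Summed mesothelial signal was 8182 to 10626 in oil and 6776 to 8349 in DES oviduct, and summed neural signal 6978 to 9563 and 4307 to 4612. The mesothelial list shares Krt19 with the epithelial list. Mean Krt19 was 3147 in oil and 4981 in DES oviduct, while mesothelial Upk3b spanned 3126 to 4085 and 855 to 1427. Of 5 adipocyte markers tested, 2 rose. Cidea, a lipid-droplet protein, read 11.8 ± 2.66 in oil and 584 ± 46.8 in DES oviduct (adjusted p = 5.36e-06). It was called Present on 4 of 16 arrays. Fabp4 rose (0.97 ± 0.28), while Pparg, Cebpa and Lipe did not pass (0.43, -0.14 and -0.18). The defining adipocyte markers Lep, Plin4, Retn and Ucp1 were Present on 0 arrays and Adipoq on 1. Of 7 ovary and germ cell genes tested, 3 were lower in DES oviduct: Dppa3 (1171 ± 781 in oil and 135 ± 5.87 in DES), Sycp3 and Dazl. Sycp3 was called Present on 3 arrays and Dazl on 2. Both were brightest in oil oviduct (means 309 and 200), so the detection filter may have admitted them through that group. The count of 3 is therefore partly set by the filter. The summed signal of that list was 1609 to 4099 in oil and 630.1 to 1061 in DES oviduct, while its steroid-hormone makers Cyp11a1, Hsd3b1 and Cyp17a1 were Present on 0 arrays. Summed skeletal muscle markers were 819 to 1538 in DES oviduct, below the muscle-rich oil arrays. Without those, oil oviduct is array 2 alone and its spread is assumed to be that of the other groups; Fdps then rose by 1.39 (adjusted p = 0.000729) and Srebf1 by 0.83 (adjusted p = 0.0384). The part of the other cell types in the result was not tested.

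In the DES uterus, 4 genes rose: Me1, Fdft1, Ebp and Fdps. Me1, the malic enzyme that supplies NADPH, read 354, 309 and 225 in oil and 743, 727 and 596 in DES uterus. The DES arrays were all far above the oil arrays, a log2 change of 1.15 ± 0.29 (adjusted p = 0.0186). Fdft1 read 667, 962 and 922 in oil and 1943, 1658 and 1083 in DES uterus (0.83 ± 0.23, adjusted p = 0.031). Here the third DES array was close to the oil range. Fdps read 1158, 1256 and 1278 in oil and 1918, 1974 and 2069 in DES uterus, tight in both groups (0.68 ± 0.15, adjusted p = 0.00802). Ebp read 637, 584 and 616 in oil and 907, 1037 and 1227 in DES uterus (0.75 ± 0.22, adjusted p = 0.0483). In all 4 genes the DES and oil groups did not overlap. Within the first and second scan day the difference was 1.08 and 1.29 for Me1, 0.68 and 0.68 for Fdps, 0.64 and 0.96 for Ebp, and 1.13 and 0.23 for Fdft1. The Fdps call held in all 31 alternatives. Ebp lost its call in 15 of 31, among them without any 1 array of either uterus group (highest adjusted p = 0.153). Fdft1 lost its call in 7 of 32, among them without uterus array 1 or 2 of DES or 1 or 3 of oil (highest 0.154). A second Fdft1 probe set, Present on 16 arrays, rose by 0.81 in the uterus (adjusted p = 0.0053). Me1 lost its call without uterus array 1 or 2 of DES or 3 of oil (highest 0.0813).

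These are 4 of 27 genes, against a background of 5.61% of all genes that rose in the DES uterus. None of the 27 fell, where 4.25% of all genes did. When scan day was a block, 8 of 27 rose (background 9.45%) and none fell (background 8.34%), the added genes being Idi1 (0.67 ± 0.24, adjusted p = 0.0135 with the block), Lss (0.70 ± 0.26, 0.0123), Fasn (0.45 ± 0.16, 0.0251) and Scd2 (0.55 ± 0.21, 0.0191). Idi1 read 488, 697 and 503 in oil and 985, 996 and 755 in DES uterus. Lss read 243, 161 and 146 in oil and 343, 343 and 259 in DES. In both genes the groups did not overlap, though the highest oil array came near the lowest DES array. In 8 of 27 genes every DES array lay above every oil array, against 12.5% of all genes, and in none below, against 14%. The median log2 change was 0.30 over the 27 genes, where all genes had -0.05, and 21 of 27 were above 0 against 43.9% of all genes. Hmgcs1 was at 2246, 3619 and 3004 in oil and 4596, 5033 and 2247 in DES uterus, so the groups overlapped. The third DES array was low, and the difference was 0.75 within the first scan day but -0.41 within the second. Msmo1 also differed between the days (1.45 and -0.01). Sqle overlapped as well, at 948, 1499.9 and 965 against 1236, 1453 and 1046.

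Epithelial markers rose in the DES uterus too: 8 of 14 were higher and 1, Prom1, was lower (-1.42 ± 0.15). Their summed signal was 18294 to 20673 over oil and 30183 to 38922 over DES arrays. Of 9 smooth muscle genes, 6 rose, with a summed signal of 27619 to 27901 in oil and 48469.5 to 59882 in DES uterus, and 12 of 19 cell-cycle genes fell. Of 10 stratified squamous markers, 5 rose. Of 13 mesenchymal genes 4 rose and 3 fell, with a summed signal of 96673 to 112770 in oil and 142154 to 151607 in DES uterus. Of 6 mesothelial genes 2 fell and 1 rose, Krt19, which is also counted among the epithelial markers here. Of 11 neural and Schwann genes 2 fell, and of 7 ovary and germ cell genes 1 rose. Their part in the result was not tested.

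In the DES vagina, none of the 27 genes passed the limma test, with or without a scan-day block, where 2.68% of all genes passed in either direction (6.32% with the block). An unadjusted p under 0.05 was reached by 2, Me1 and Ebp. Me1 read 345, 313 and 371 in oil and 627 and 622 in DES vagina. Both DES arrays were well above the oil arrays, a log2 change of 0.81 ± 0.33 (adjusted p = 0.308). Within the first scan day it passed (adjusted p = 0.0429), in a fit where 1 DES vagina array stood alone and took its spread from the rest. Ebp read 762, 496 and 837 in oil and 1017 and 1034 in DES (0.57 ± 0.25, adjusted p = 0.376), also without overlap. Fdps, already high in oil vagina, read 2429 and 2139.6 in DES vagina (0.17 ± 0.17, adjusted p = 0.817). Idi1 read 818, 957 and 665 in oil and 1533 and 737 in DES vagina, with the first of these DES arrays far above all others and the second within the oil range. Lss showed the same split (260.5, 319 and 175 in oil, 447 and 241 in DES). Fdft1 read 1252, 1216 and 1527 in oil and 1913 and 1128 in DES vagina, so its DES arrays lay above and below all oil arrays. The median log2 change over the 27 genes was 0.13, where all genes had -0.02, and 18 of 27 were above 0 against 47.8%. No other gene than Me1 and Ebp was higher without overlap, against 13.1% of all genes. Of 10 stratified squamous markers 3 rose in the DES vagina and of 14 epithelial markers 3 rose and 2 fell. With 2 DES arrays on 2 scan days, the precision is the lowest of the 3 organs.

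**Figure D4:**
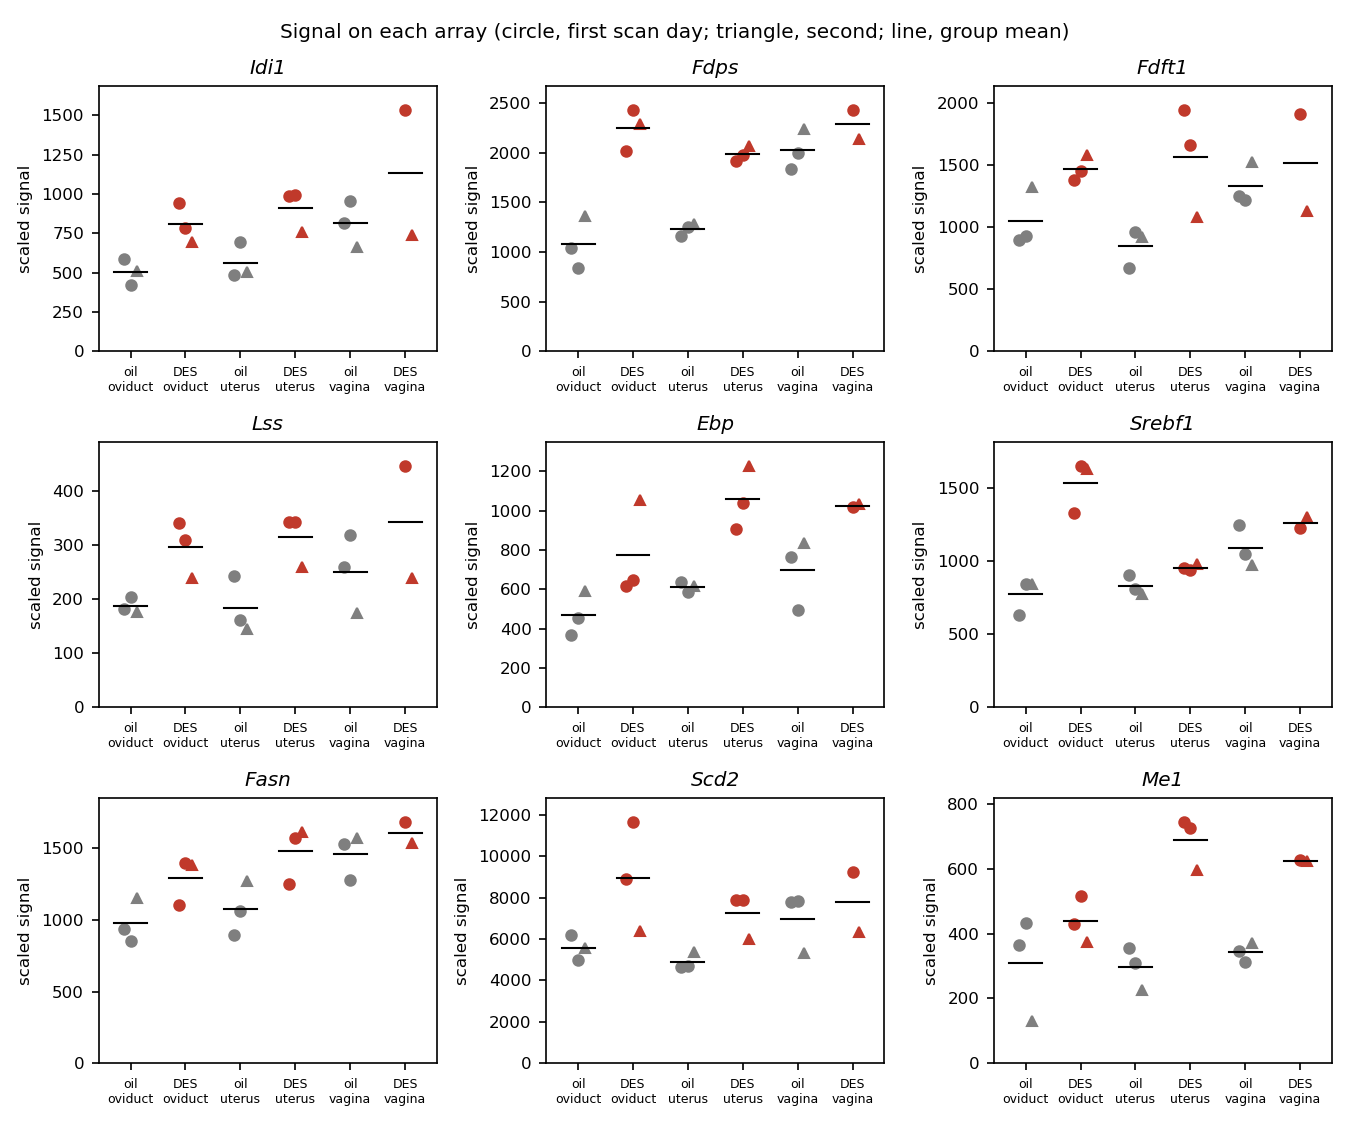
Scaled signal of 9 genes on each array, by group (grey, oil; red, DES), with circles for the first scan day, triangles for the second and a line at the group mean. Fdps is separated between oil and DES in oviduct and uterus but not in vagina, Srebf1 is set apart in DES oviduct, and Me1 is high in DES uterus and DES vagina.

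Averaged over the 3 organs, 9 of 27 genes rose with DES and none fell, against 9.87% of all genes that rose and 9.53% that fell. Of the sterol arm these were Fdps (log2 change 0.64 ± 0.09, adjusted p = 8.61e-05), Ebp (0.66 ± 0.13, 0.00218), Idi1 (0.57 ± 0.14, 0.00923), Lss (0.55 ± 0.15, 0.0188) and Fdft1 (0.49 ± 0.14, 0.0198). Srebf1 rose as well (0.46 ± 0.09, adjusted p = 0.00124). Of the fatty acid arm, Me1 (0.85 ± 0.17, adjusted p = 0.00227), Scd2 (0.45 ± 0.12, 0.0181) and Fasn (0.33 ± 0.10, 0.028) rose. The scan-day block added Mvd and Nsdhl, for 11 of 27 against 14.3%. Without DES vagina array 2 the count was 4 (Fdps, Ebp, Srebf1 and Me1), and Idi1, Lss, Fdft1, Scd2 and Fasn lost their call. Fasn lost its call in 9 of 31 alternatives in all. Second probe sets of Idi1 (adjusted p = 0.686) and Lss (0.404) did not pass, whereas those of Fdft1 (0.000313), Scd2 (0.00171 and 0.00613) and Me1 (0.000115, Present on 4 arrays) did. Another Hmgcs1 probe set also rose (log2 change 0.41, adjusted p = 0.0250), unlike the one used here (0.30 ± 0.16, adjusted p = 0.217). A second Elovl6 probe set, Present on 16 arrays, fell by 0.47 on average (adjusted p = 0.0121), unlike the one used here (-0.05 ± 0.11, adjusted p = 0.816).

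In the fatty acid arm, 3 of 8 genes rose on average with the probe sets used here, where 9.87% of all genes rose, and none fell, where 9.53% did. Fasn, which builds palmitate, read 935, 851 and 1149 in oil and 1102, 1394 and 1382 in DES oviduct. It read 897, 1063 and 1269 in oil and 1248, 1567 and 1612 in DES uterus. It read 1529, 1276 and 1567 in oil and 1679.6 and 1532 in DES vagina. Groups overlapped slightly in the oviduct, uterus and vagina alike. Scd2 read 6219, 5004 and 5549 in oil and 8878, 11647 and 6376 in DES oviduct. In the uterus it read 4673, 4679 and 5384 in oil and 7904, 7879.8 and 5993 in DES, and in the vagina 7768, 7816 and 5322 in oil and 9262 and 6334 in DES. Oviduct and uterus groups were apart, and the arrays of the second scan day were the lowest of each DES group. Both other Scd2 probe sets rose in the oviduct (0.92, adjusted p = 0.0121 and 0.0216). In the uterus 1 of them rose (0.73, adjusted p = 0.0461) and the other did not pass (0.48, adjusted p = 0.268). Scd1, the related desaturase of liver and fat, passed in no organ. It read 605, 627 and 488 in oil and 411, 499 and 297 in DES uterus, a change of -0.50 ± 0.26 that did not pass (adjusted p = 0.307). In the oviduct it read 780.0, 840.5 and 723 in oil and 793, 1017 and 685 in DES, and in the vagina 546, 562 and 454 in oil and 736 and 289.6 in DES, both with overlap. Me1 in the oviduct read 366, 432 and 130.0 in oil and 429, 514 and 374 in DES; the third oil array was far below the rest, and the change of 0.59 ± 0.29 did not pass (adjusted p = 0.287). A second Me1 probe set, Present on 4 of 16 arrays, passed in the oviduct (adjusted p = 0.00211) and in the uterus (0.00136). Acly had changes of -0.05, -0.04 and -0.15 in oviduct, uterus and vagina, none of which passed. Acss2, which activates acetate and was not called Present on any oil array, Acaca, the carboxylase that makes malonyl-CoA, and Elovl6 did not pass in any organ either, with adjusted p from 0.568 (Acss2 in oviduct) upward. The second Elovl6 probe set, which fell on average, fell by 0.91 in the DES vagina (adjusted p = 0.0436), so the Elovl6 probe sets disagree.

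Srebf1 passed in the oviduct alone. In the uterus it read 904, 807 and 775 in oil and 952, 936 and 978 in DES, with no overlap but a small change (0.20 ± 0.15, adjusted p = 0.514). In the vagina it read 1245, 1049.8 and 970.4 in oil and 1223 and 1303 in DES (0.22 ± 0.16, adjusted p = 0.722). The DES effect on Srebf1 in uterus minus that in oviduct was -0.76 ± 0.21 on the log2 scale. By limma this difference had an adjusted p of 0.0964, and 0.0279 when scan day was a block. The difference of vagina minus oviduct was -0.75 ± 0.22 (adjusted p = 0.137, 0.0457 with the block). For Fdps it was -0.89 ± 0.23 (adjusted p = 0.0682, 0.00985 with the block). No other gene of the 27 passed in a comparison of DES effects between organs, with or without the block. Among all genes, 1.74% passed for uterus minus oviduct, 0.311% for vagina minus uterus and 1.68% for vagina minus oviduct (4.4%, 1.18% and 4.04% with the block). Srebf2 read 624, 647 and 765 in oil and 688, 592 and 834 in DES oviduct. In the uterus it read 725, 677 and 628 in oil and 599, 854 and 728 in DES, and in the vagina 495, 652 and 873 in oil and 814 and 854 in DES. With this probe set the groups overlapped in all 3 organs, with log2 changes of 0.04, 0.09 and 0.33 that did not pass (lowest adjusted p = 0.639). A second Srebf2 probe set, Present on 14 arrays, had larger changes in oviduct (0.28) and uterus (0.63) and -0.01 in vagina. It did not pass either, with the lowest adjusted p in the uterus (0.0611). Stard4, which carries cholesterol between membranes, did not pass in any organ (log2 changes 0.03, 0.21 and -0.26).

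The remaining sterol enzymes did not pass in any organ without the block. Mvk, the first kinase of mevalonate, was not called Present on any array of oil oviduct or oil uterus, so no size is given. Pmvk, the next kinase, was dim as well, and its changes were 0.28, -0.39 and -0.01 in oviduct, uterus and vagina. Cyp51, the lanosterol demethylase of the cytochrome family, had 0.07, 0.17 and -0.03 in the same order. Sc5d, a sterol desaturase, had 0.00, 0.20 and 0.13. Dhcr7, which makes cholesterol in the last step of one branch, had 0.21, -0.13 and -0.38, and Hsd17b7, a sterol ketoreductase, -0.23, 0.47 and 0.32. Of single organs, Mvd and Nsdhl passed in the oviduct alone and with the block alone.

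Averaged over the arm, oil oviduct and oil uterus lay below the other groups. The mean log2 deviation of the 16 sterol enzymes from their own means was -0.49 to -0.09 in oil oviduct and 0.09 to 0.19 in DES oviduct, with no overlap. It was -0.31 to -0.12 in oil uterus and -0.04 to 0.27 in DES uterus, again without overlap. It was 0.06 to 0.15 in oil vagina and -0.05 to 0.53 in DES vagina, where the 2 DES arrays lie on both sides of the oil arrays. The 8 fatty acid genes gave -0.30 to -0.02 in oil and -0.08 to 0.31 in DES oviduct, which overlap, and -0.27 to -0.06 and 0.02 to 0.17 in oil and DES uterus, which do not. The summed epithelial signal was 30646 to 38316 in oil vagina and 37163 to 43839 in DES vagina, so oil vagina was near the level of DES oviduct and DES uterus in epithelial markers as it was in the sterol arm. The plot of arm means beside epithelial markers shows both, and the part of epithelial content in the result was not tested.

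**Figure D5:**
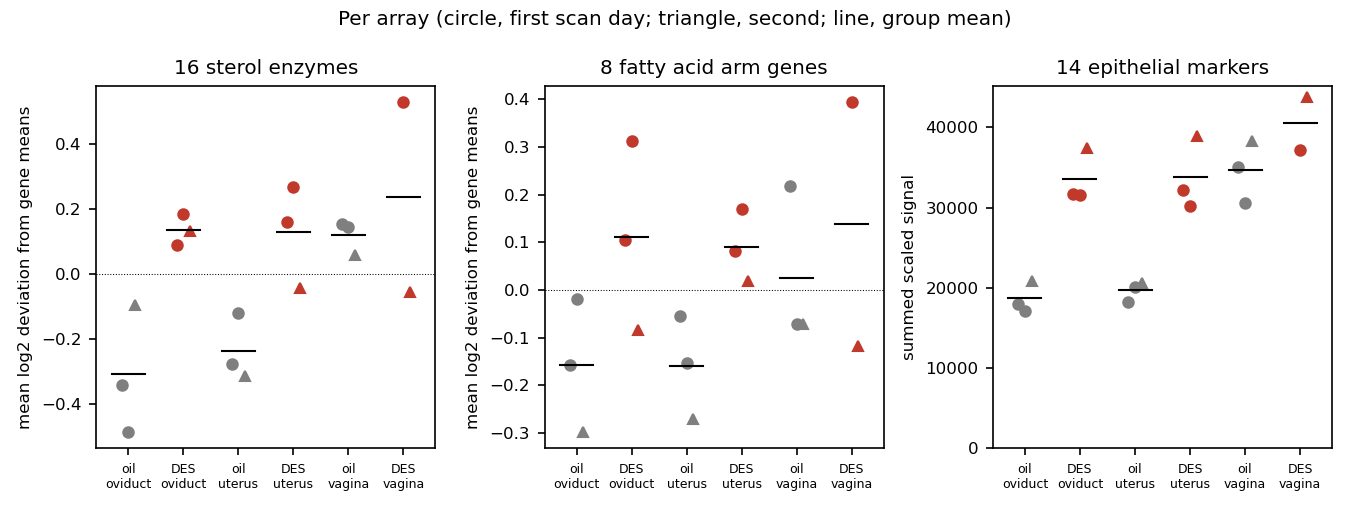
For each array, the mean log2 deviation of the 16 sterol enzymes and of the 8 fatty acid arm genes from their own means, and the summed scaled signal of 14 epithelial markers, by group (grey, oil; red, DES; circles, first scan day; triangles, second; line, group mean). In all 3 panels oil oviduct and oil uterus have the lowest group means, and DES oviduct, DES uterus and both vagina groups lie higher.

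Other genes of lipid metabolism were counted against the same shares of all genes: 5.35% rose and 4.09% fell in the DES oviduct, 5.61% and 4.25% in the DES uterus, 2.68% passed either way in the DES vagina, and 9.87% rose and 9.53% fell on average. Counts with a scan-day block are given after each list. With the block the shares of all genes were 9.15% higher and 8.79% lower in the DES oviduct, and 9.45% and 8.34% in the DES uterus. In the DES vagina 6.32% passed either way with the block. On average 14.3% rose with the block, and the share that fell is not given here. Of 8 further sterol synthesis genes tested, none changed in the DES oviduct and 2 rose in the DES uterus: Tm7sf2, a sterol reductase (0.71 ± 0.20, adjusted p = 0.0369), and Aacs, which activates acetoacetate (0.67 ± 0.19, 0.0342). On average over the organs these 2 rose (0.53 ± 0.12 and 0.49 ± 0.11) and Lbr, a sterol reductase of the nuclear envelope, fell by 0.32 on the log2 scale. With the block 1 rose and 1 fell in the oviduct, and 2 rose in the uterus. Of 17 genes of sterol sensing, uptake and transport, none passed in any single organ without the block, and Vldlr, a lipoprotein receptor, rose on average (1.04 ± 0.26, adjusted p = 0.00995). With the block 1 of the 17 rose in each organ (5.88%), and 3 rose and 2 fell on average. Of 13 further fatty acid synthesis genes, 2 rose in the oviduct and 3 in the uterus. Elovl5, an elongase of polyunsaturated fatty acids, went from 2628 ± 337 to 5235 ± 563 (SD, n = 3) in the oviduct and from 2383 ± 106 to 4152 ± 707 in the uterus. Mid1ip1, which promotes polymerization of acetyl-CoA carboxylase, went from 918 ± 37.1 to 1977 ± 208 and from 673 ± 39.2 to 1046 ± 166. Both passed in both organs (adjusted p = 0.000515 for Mid1ip1 and 0.000941 for Elovl5 in oviduct, 0.0353 and 0.00621 in uterus). The third in the uterus was Hacd3, a dehydratase of long-chain acyl-CoA (0.90 ± 0.25). With the block 4 rose in oviduct, 4 in uterus and 2 in vagina. Of 9 genes of NADPH and citrate supply, none passed in a single organ without the block, and on average Pgd of the pentose phosphate pathway rose (0.58 ± 0.17) while Tkt fell (-0.21). With the block 2 rose in the oviduct and 3 in the uterus.

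Storage and burning of fat were also covered, against the same shares of all genes without and with the block. Of 13 acyl-CoA and triglyceride genes, none changed in the oviduct, 1 rose in the uterus (Gpam, the first acyltransferase of glycerolipid synthesis, 0.86 ± 0.22) and 2 rose in the vagina. These were Dgat2, which makes triglyceride, from 409 ± 42.5 to 857 ± 54.3 (SD, n = 3 and n = 2, adjusted p = 0.0026), and the lipase gene Lpl, from 1441 ± 584 to 3145 ± 109.6 (adjusted p = 0.0248). With the block 2 rose and 1 fell in the oviduct, 4 rose in the uterus and 3 in the vagina. Gpam, Dgat2 and Lpl also rose on average. Of 14 fatty acid oxidation genes, Hadh alone changed in a single organ, lower in the DES uterus (-0.49 ± 0.14, adjusted p = 0.0339). On average Hadh (-0.33) and Cpt1a, which admits fatty acids to mitochondria (-0.54), fell and none rose. With the block 2 fell in the uterus and none changed in the other organs. In oil, Lpl was higher in oviduct than in uterus (1.22 ± 0.24) and than in vagina (1.23 ± 0.24), and Cd36, a fatty acid receptor, was higher in oviduct than in vagina (0.94 ± 0.24). Between uterus and vagina in oil, Dgat2 was higher in uterus (0.74 ± 0.15) and Fabp5, a fatty acid carrier of stratified epithelia, was lower (-1.19 ± 0.25).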

How the data were processed

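Signal intensities per probe set and their detection p-values were made by the authors with Affymetrix expression analysis, per the file headers; neither software version nor scaling is given in the sources used here. The intensities of 17 MOE430A arrays were scaled to a 2% trimmed mean of 500 and transformed as log2(signal + 32). Values of oil oviduct array 1 came from the deposited value table, without detection calls. Of 22626 probe sets without 64 controls, 20380 had 1 gene symbol, 691 several and 1555 none. Only those with 1 symbol were assigned to a gene. The 16702 probe sets with a Present call on 2 or more arrays entered limma 3.58.1 (R 4.3.3) with 1 mean per group, all 6 groups in 1 fit, 11 residual and 5.81 prior degrees of freedom and Benjamini-Hochberg adjustment over all 16702. Percentages of all genes count 1 probe set for each of 9637 genes. The fit was tried on simulated data with independent noise and no scan-day effect, with 200 of 16702 probe sets changed. Of those moved by 1 on the log2 scale, 47% were called in oviduct, 50% in uterus and 37% in vagina. Among unchanged probe sets 12, 5 and 7 were called in the same order. The simulation does not show how the fit handles differences between scan days. Alternatives were the value table as source, quantile normalization, pseudocounts of 1 and 100, looser and stricter detection filters, no variance trend, fitting only the groups compared, replicate and scan-day blocks, other probe sets and leaving out arrays; the first scan day alone and fits without conflicting records or muscle-rich arrays were chosen after seeing the data. Numbers were not taken as pairs. Log2 deviations from the group mean, not the levels themselves, were correlated between arrays of different groups. Same-numbered arrays gave a median of 0.294 over 40 pairs (lowest 0.0856), and other numbers of the same day 0.236. Arrays of different scan days gave a median of -0.344 over 55 pairs. Deviations within a group cancel out, so positive values within a day and negative values between days are not independent findings. The main fit has no term for the scan day. Values on every array are given for genes past the threshold in a DES or oil comparison (up to 6 per arm and comparison) and for Hmgcs1, Sqle, Fasn, Scd1, Scd2, Srebf1 and Srebf2; of each other list up to 4 genes are named per comparison. Members and lists were chosen with earlier results of these data known. Tables and figures used Python 3.11.15, pandas 2.3.3, numpy 2.4.6 and matplotlib 3.10.9.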

Additional observations from a re-analysis of the deposited data

How the results depend on the processing

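Counts of the 27 genes called stayed within 1.5 times the reported count in 270 of 310 alternatives. That total takes in comparisons with a reported count of 0. These are the DES vagina, oviduct against uterus in oil and the differences of DES effects between organs. The total is therefore no measure for the comparisons with calls, whose counts moved as follows. The replicate block pairs arrays by number, a pairing that the labels do not state. With it 7 genes passed in the DES oviduct (2 without) and 9 in the DES uterus (4 without). In oil 2 passed for uterus against vagina (1 without) and 6 for oviduct against vagina (2 without). The DES effect in uterus minus oviduct and in vagina minus oviduct had 1 each (0 without). The scan-day block gave 8, 8, 2, 5, 1 and 2 for the same comparisons. The first scan day alone gave 7 in the DES oviduct, 8 in the DES uterus, 1 in the DES vagina, and in oil 4 for uterus and 8 for oviduct against vagina. Without the 3 muscle-rich oil arrays, oil oviduct is a lone array assumed to vary like other groups, and oil uterus has 2 arrays; 1 gene passed in the DES vagina and 1 for vagina minus oviduct. Adding the scan-day block to that gave 5, 9 and 1 in the DES oviduct, uterus and vagina, 4 and 7 for uterus and oviduct against vagina in oil, 1 for vagina minus uterus and 2 for vagina minus oviduct. No variance trend gave 2 in the DES uterus, quantile normalization 1 for vagina minus oviduct, and fitting only the groups compared, or leaving out the 2 oviduct arrays with conflicting records, 1 for oviduct against vagina in oil. Leaving out 1 array at a time gave 2 to 3 in the DES oviduct, 1 to 4 in the DES uterus, 0 in the DES vagina, 4 to 10 for the mean over organs, 0 to 1 for uterus and 1 to 3 for oviduct against vagina in oil, and 0 to 1 for vagina minus oviduct. The DES uterus count was 1 without DES array 1 or 2 or oil array 3, and 2 without oil array 1. Acly had the opposite sign with another probe set, called Present on 4 arrays (0.53). The cause of these differences was not tested. The number of arrays limits the precision, and 7 of the 27 genes were not called Present on every array.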
